A study of Mus musculus with 12 samples.

Results

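The change in hepatic gene expression between 1 day and 3 days of MgH2 administration in db/db mice was taken from 6 of the 12 two-color arrays of the series, 3 arrays per day. Each array gave the log2 ratio of the Cy5 signal, from mice given MgH2, over the Cy3 signal, from control mice. The comparison was the ratio at 3 days minus the ratio at 1 day, with arrays paired by replicate number. Of the 39429 probes on the array, 19223 passed the background limit in each channel of the 6 arrays, and these stood for 11882 genes by symbol. A difference of 1 on this log2 scale is a ratio 2-fold higher at 3 days, and a difference of -1 is a ratio 2-fold lower. A dye bias that is the same on every array remains in each ratio and cancels in the difference between days.

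All groups were male db/db mice, which lack a functional leptin receptor and become obese and diabetic. The labels give them as 8 weeks-old, and food was freely available. MgH2 releases H2 on contact with water and was given daily by gavage into the stomach, in a dose the labels put at 0.9 mg/kg. The study's methods name higher doses, while its legend for plasma triglycerides over the same days of MgH2 gives the dose of the labels. The controls received Mg(OH)2, the other product of that reaction, so treated and control mice shared the strain and the route. The study's methods do not give the amount of Mg(OH)2, and whether the dose of magnesium was equal was not tested. RNA from 9 mice of each group was combined into 3 pools of 3 mice, and each array compared a treated pool with a control pool, without a dye swap. The 3 arrays after 7 days of MgH2 entered the fit as a further group, and their ratios are given beside those of the earlier days. In a whole liver, fewer cells of a type and less RNA per cell cannot be told apart.

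The liver makes fatty acids from acetyl-CoA by de novo lipogenesis, in which *Acaca* and *Fasn* build the chain, *Elovl6* lengthens it and *Scd1* desaturates it. The transcription factors SREBP-1c (*Srebf1*), which responds to insulin, and ChREBP (*Mlxipl*), which responds to glucose, drive this pathway, and it is known to be high in the fatty liver of db/db mice. In fasting, the nuclear receptor PPAR alpha (*Ppara*) and the coactivator PGC-1 alpha (*Ppargc1a*) raise fatty acid oxidation and gluconeogenesis. The short courses of MgH2 were measured to see how early the hepatic response to H2 begins.

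The ratio of MgH2 over control rose between 1 and 3 days for 55 of the 19223 probes (0.286%) and fell for 119 (0.619%), at an adjusted P under 0.05 by limma. By gene, 124 of 11882 were called (1.04%), of which 38 rose (0.32%) and 86 fell (0.724%). Enzymes of fatty acid synthesis and proteins of the lipid droplet surface were among the genes with the largest falls, and a bile acid hydroxylase and an organic anion transporter were among those with the largest rises. The called differences were mostly below 2-fold, with a median size of 0.516, and 17 probes fell and 4 rose by more than 2-fold. The smallest adjusted P was 0.021, so every call lay near the threshold. Of all probes, 23.6% had an unadjusted P under 0.05 (11.4% higher and 12.2% lower), which was 4538 probes where 961 would be counted without any difference. In 10.4% of probes all arrays of 3 days were above all of 1 day, and in 8.86% they were all below. In each of the 124 called genes the 3 pairs of equal number differed in the same direction. In 103 of them the arrays of 1 day and of 3 days did not overlap, against 20.6% of all genes tested. The test itself favours both, so neither adds support to the calls.

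**Figure D1:**
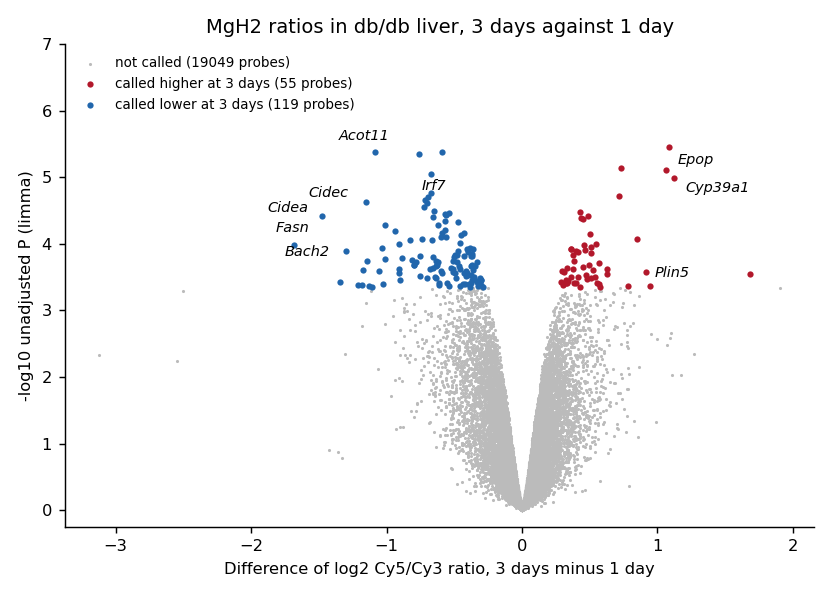
Each point is a probe. The x axis is the difference of the log2 Cy5/Cy3 ratio, 3 days minus 1 day, and the y axis is -log10 of the unadjusted P by limma. Called probes that rose (red, 55) and fell (blue, 119) stand apart from the grey probes that were not called, and *Fasn* at -1.69 and *Cyp39a1* at 1.12 are among the genes furthest from 0.

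These calls needed all 9 MgH2 arrays and the pairing by number. With any replicate number left out, 0 probes were called and 2753 to 3637 had an unadjusted P under 0.05 by limma. With the 6 arrays alone, 0 probes were called and 4004 had an unadjusted P under 0.05, and without the replicate block 1 rose and 0 fell, with 2627 at an unadjusted P under 0.05. Slide and day were partly confounded, since the 3 arrays of 1 day shared slide 1 with replicate 1 of 3 days, and replicates 2 and 3 of 3 days lay on slide 2. With slide as a block besides the replicate number, 0 probes were called and 2487 had an unadjusted P under 0.05. The pair of replicate 1 was the only pair within a slide. Of the 40 called genes that the naming rule chose, 15 had differences over 1.5 times smaller in size with slide as a block in place of the number. With normexp background correction and loess, which adds an offset of 50 to both channels, all 40 kept their direction, 36 were called and 13 were over 1.5 times smaller.

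The difference between days came mostly from the MgH2 channel. After each channel was scaled to its own median, the mean change from 1 to 3 days had an SD over probes of 0.21 on the log2 scale in the Cy5 channel and 0.106 in the Cy3 channel. For 172 of the 174 called probes the Cy5 channel changed more than the Cy3 channel. The same count was not made over all probes, where the wider spread of the Cy5 channel also favours a larger Cy5 change. The change over the called probes ran from -1.73 to 1.76 in the MgH2 channel and from -0.261 to 0.359 in the control channel. Arrays of equal number were alike in the control channel instead. For arrays of 1 and 3 days with the same number, the deviations of the control channel from its day mean correlated with r of 0.327 to 0.645 over probes (3 pairs of arrays). Those of the MgH2 channel correlated with r of -0.281 to 0.163, and those of the ratio with r of 0.399 to 0.515. Arrays with different numbers gave r of -0.389 to -0.049 for the ratio (6 pairs of arrays). The deviations of arrays within a day sum to 0, which by itself pulls correlations between different numbers below 0, and the labels do not say whether control pools of equal number held the same mice.

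**Figure D2:**
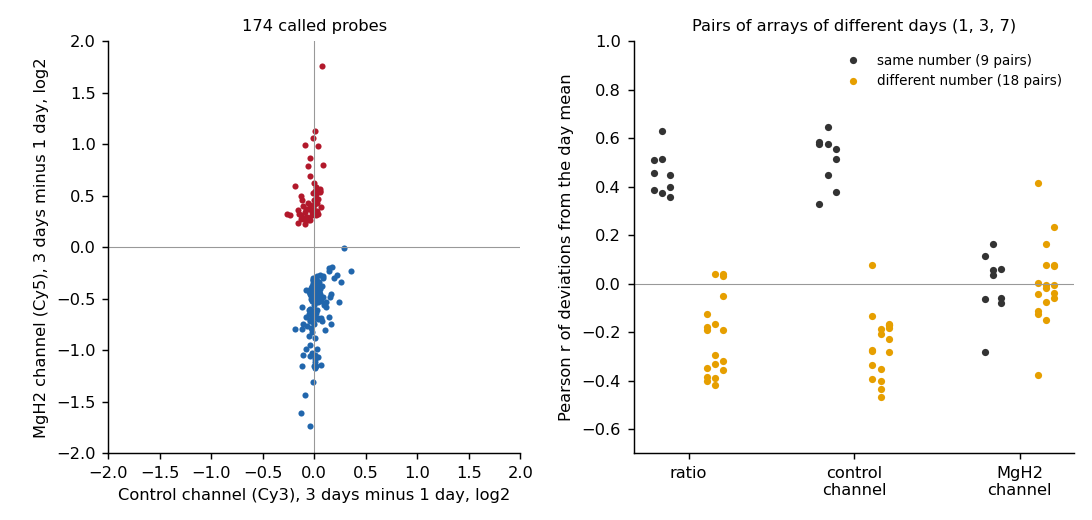
The left panel plots, for the 174 called probes, the log2 change from 1 to 3 days in the control channel (x axis) against that in the MgH2 channel (y axis), with probes that rose in red and those that fell in blue. The right panel gives Pearson's r, over probes, of the deviations from the day mean for pairs of arrays of different days, with 9 pairs of the same number in black and 18 of different numbers in orange. The points of the left panel form a vertical band, and same-numbered control channels correlate at 0.327 to 0.645.

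The lipogenesis list had the lowest median of all lists with more than 3 genes tested. Of the 22 listed genes, 20 were tested, 5 fell (*Fasn*, *Elovl6*, *Thrsp*, *Me1* and *Gpam*), 0 rose, and the median difference was -0.56, against 0.0091 over all genes. Within the pairs of number 1, 2 and 3 the list's median was -0.54, -0.47 and -0.66. Of the 20, 15 were lower at an unadjusted P under 0.05 (13.1% of all genes), and in 8 (40.0%, against 9.44% of all genes) every array of 3 days was below every array of 1 day. The median log2 ratio of the list was -0.07 at 1 day, -0.51 at 3 days and -0.56 at 7 days.

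*Fasn*, the fatty acid synthase, had log2 ratios of 1.01, -0.91 and -0.25 on the arrays of 1 day and -1.03, -2.37 and -1.81 on those of 3 days. All 3 arrays of 3 days were below all 3 of 1 day, and replicate 1 was the highest array on each day. The difference was -1.69 ± 0.19 (SE; n = 3 arrays per day; limma adjusted P = 0.043), a 3.22-fold lower ratio, and the mean log2 ratio at 7 days was -1.70. *Elovl6*, the elongase of palmitate, was at 0.30, -0.79 and -0.15 and then at -0.64, -2.05 and -1.49. The days overlapped because replicate 2 of 1 day was below replicate 1 of 3 days, while every pair fell (difference -1.18 ± 0.17, adjusted P = 0.049). *Thrsp*, also known as Spot 14, a protein that promotes lipogenesis, had ratios of 1.08, -0.38 and 0.17 at 1 day and 0.28, -1.16 and -0.60 at 3 days. Its groups overlapped as well, yet the pairs of number 1, 2 and 3 differed by -0.80, -0.78 and -0.76. With slide as a block and no replicate block *Thrsp* was at -0.00777 and *Elovl6*, *Me1* and *Fasn* were at -0.43, -0.36 and -0.98, none of them called. *Me1*, malic enzyme, which supplies NADPH for fatty acid synthesis, was at 0.32, -0.22 and 0.07 and then at -0.30, -0.83 and -0.64, without overlap (difference -0.65 ± 0.06, adjusted P = 0.032). *Gpam*, the mitochondrial acyltransferase that starts glycerolipid synthesis, fell by 0.56 on the log2 scale.

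Several other genes of the pathway were below 0 without a call of their representing probe. *Scd1* differed by -1.15 (adjusted P = 0.054), *Srebf1* by -0.81 (adjusted P = 0.058), *Mlxipl* by -0.65 (adjusted P = 0.066) and *Acacb*, the acetyl-CoA carboxylase of the outer mitochondrial membrane, by -0.62 (adjusted P = 0.060). The representing probe of *Acaca* differed by -0.79 (adjusted P = 0.065), and another of its probes fell by 0.81 on the log2 scale (adjusted P = 0.044). *Scd3*, a related desaturase outside the list, fell by 1.21 on the log2 scale (adjusted P = 0.049), with a second probe at -0.41 that was not called. The fatty acid desaturases *Fads1* and *Fads2* and the acyltransferase *Dgat1* were above 0, at 0.21, 0.07 and 0.11. With slide as a block and no replicate block, the list's median was -0.045, and with slide beside the replicate block it was -0.53.

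The windows of 250 bases upstream of the annotated starts of *Fasn* and *Thrsp* are shown because both genes fell and both windows hold CCAAT boxes, the letters CCAAT on either strand, a motif added to the search after these differences were seen. Sequences are from RefSeq, build GRCm38.p6, on the strand of the gene from 5′ to 3′, and capitals mark each match. The *Fasn* window, chr11:120824548-120824797 on the minus strand, has 3 matches, of which a pair overlap. The *Thrsp* window, chr7:97417551-97417800 on the minus strand, has 2.
Fasn: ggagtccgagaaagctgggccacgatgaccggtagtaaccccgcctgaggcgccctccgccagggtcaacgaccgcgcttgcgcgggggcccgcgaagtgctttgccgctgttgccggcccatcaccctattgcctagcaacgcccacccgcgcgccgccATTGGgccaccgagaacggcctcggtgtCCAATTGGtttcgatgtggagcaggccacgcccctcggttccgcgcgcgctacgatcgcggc
Thrsp: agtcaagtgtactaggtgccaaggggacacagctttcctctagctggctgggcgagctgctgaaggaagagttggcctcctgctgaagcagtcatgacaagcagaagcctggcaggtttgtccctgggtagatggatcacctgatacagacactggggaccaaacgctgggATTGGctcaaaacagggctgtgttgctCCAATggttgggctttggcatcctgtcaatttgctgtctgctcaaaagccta
The CCAAT box was found in at least 1 window of 27 of the 72 genes that fell and have a window, among them *Me1*, *Gpam* and *Acot11*. It was in 14 of the 30 that rose, and in 37.5% of all 27025 genes with a window.

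**Figure D3:**
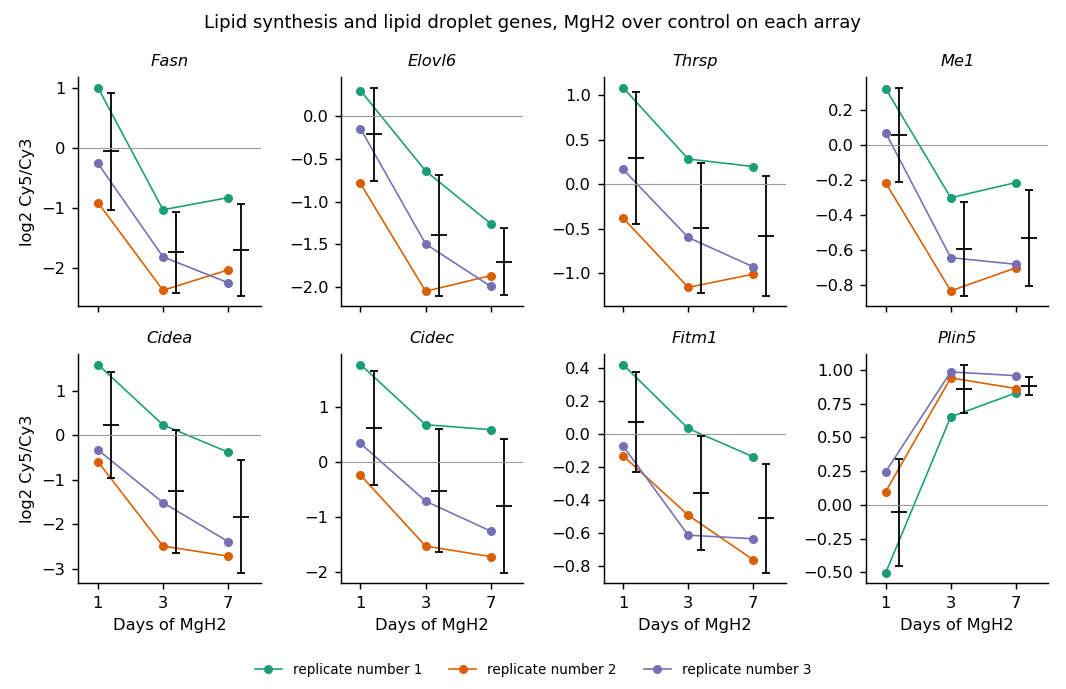
Log2 Cy5/Cy3 ratio (y axis, own scale in each panel) on every array after 1, 3 and 7 days of MgH2 (x axis, days evenly spaced) for 4 lipogenic genes and 4 genes of the lipid droplet. Lines join arrays of equal replicate number, and black bars give the mean ± SD of 3 arrays. In all panels except *Plin5* each line goes down from 1 to 3 days, as from 1.01 to -1.03 for replicate 1 of *Fasn*, and in *Plin5* each goes up.

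Proteins of the lipid droplet moved in both directions. Of 23 genes of droplets and lipases tested, *Cidea*, *Cidec* and *Fitm1* fell (0.724% of all genes), *Plin5* rose (0.32% of all genes), and the median was -0.10. Every array of 3 days was above every array of 1 day in 21.7% of them, against 11.1% of all genes. In 21.7% every array was below, against 9.44% of all genes. *Cidea*, which promotes fusion and growth of droplets, had ratios of 1.59, -0.59 and -0.32 at 1 day and 0.24, -2.49 and -1.51 at 3 days, with a difference of -1.48 ± 0.14 (SE, adjusted P = 0.032). *Cidec*, its relative with the same role, was at 1.78, -0.23 and 0.34 and then at 0.68, -1.53 and -0.71 (difference -1.15 ± 0.10, adjusted P = 0.032), and its second probe fell by 0.89 on the log2 scale. In both genes replicate 1 was far above the other arrays of its day and the days overlapped, while each of the 3 pairs fell. With slide as a block and no replicate block, *Cidea* and *Cidec* were at 0.00896 and 0.05, and with normexp and loess *Cidea* was at -0.73. *Fitm1*, a protein of droplet formation, fell by 0.43 on the log2 scale, and was at -0.04 with slide as a block and no replicate block.

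*Plin5*, the perilipin that ties droplets to mitochondria in oxidative tissues, went the other way. Its ratios were -0.50, 0.10 and 0.25 at 1 day and 0.65, 0.94 and 0.98 at 3 days, with no overlap, a 1.88-fold rise (difference 0.91 ± 0.12, adjusted P = 0.046) and a mean log2 ratio of 0.88 at 7 days. Among genes that did not pass the test, *Pnpla2*, the adipose triglyceride lipase, differed by 0.42 (adjusted P = 0.051), *Plin4* by 0.78, *Mogat1* by -0.48 and *Plin2*, the main perilipin of fatty liver, by -0.20. *Acot11*, an acyl-CoA thioesterase outside the list, had the smallest adjusted P of the named genes. It was at 0.75, -0.08 and 0.06 on the arrays of 1 day and at -0.28, -1.27 and -0.98 on those of 3 days, and fell by 1.09 on the log2 scale (SE 0.07, adjusted P = 0.021).

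Some genes listed as adipocyte markers fell with these, and which cells they came from was not tested. *Cidea*, *Cidec*, *Fasn*, *Thrsp* and *Me1* are also expressed in adipose tissue. Of the 6 listed adipocyte markers 3 were tested and all 3 were below 0. *Retn*, resistin, and *Car3*, carbonic anhydrase 3, fell by 1.34 (0.77 with normexp and loess) and by 0.62 on the log2 scale. *Retn* was at 1.53, -0.57 and -0.68 and then at -0.11, -1.78 and -1.88, so its days overlapped, while each pair fell. With slide as a block and no replicate block, *Retn* and *Car3* were at -0.20 and -0.30, neither called. With slide beside the replicate block they were at -1.63 and -0.64. *Cfd*, adipsin, differed by -2.50 (adjusted P = 0.050) without passing the test. The ratios of *Cfd* spread from -0.96 to 2.61 at 1 day and from -3.57 to -0.91 at 3 days. The summed signal of the 3 markers was 274 to 299 times that of the median probe in the MgH2 channel at 1 day and 179 to 239 times at 3 days, against 217 to 307 and 243 to 345 times in the control channel. Signals were summed on a linear scale, so the brightest marker weighs most. The mean log2 signal was 16.54 for *Car3* and 6.63 for *Retn*, so the sum says little about *Retn*. The defining markers *Adipoq*, *Lep* and *Plin1* were above background on 0 of the 6 arrays in either channel. The part of fat cells in the lipid results was not tested.

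Targets of PPAR alpha showed no common direction. Of 29 tested, *Plin5* rose (0.32% of all genes), *Cidec*, *Fabp1*, *Ucp3* and *Fitm1* fell (0.724% of all genes), and the median was 0.017. Every array of 3 days was above every array of 1 day in 31% of them, against 11.1% of all genes. In 27.6% every array was below, against 9.44% of all genes. *Fabp1*, the fatty acid binding protein of hepatocytes, had ratios of 0.06, 0.17 and 0.19 at 1 day and -0.40, -0.57 and -0.38 at 3 days, without overlap (difference -0.59, adjusted P = 0.040). It was an exception among the calls, since its control channel changed by 0.36 and its MgH2 channel by -0.23. *Ucp3*, a mitochondrial carrier known from muscle, fell by 0.50 on the log2 scale. The omega-hydroxylases *Cyp4a10*, *Cyp4a31* and *Cyp4a14* were at 0.45, 0.45 and 0.55, without passing the test, and in each the arrays of 3 days were all above those of 1 day. *Ehhadh*, a classical target of the receptor, was at 0.02.

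None of the genes that the study followed was called with the deposited ratios. That list of fatty acid metabolism and coactivator genes was chosen by the study on arrays of this series. By the paper, genes were selected on arrays after 14 days of water infused with H2, which are outside this fit. It reports the rise of *Ppargc1a* from MgH2 arrays of 3 and 7 days. Its reverse transcription PCR, on RNA used for the arrays, also gave this rise, with *Cpt1a* higher after 3 days and *Fgf21* after 7 days. The legend sets that PCR against 0 days, not against 1 day. The direction of *Ppargc1a* is therefore not independent evidence, and how far this holds for the rest of the list was not tested. Of the 18 genes of the list 17 were tested, 0 rose and 0 fell, with a median of 0.094. At an unadjusted P under 0.05 by limma 8 were higher and 4 lower (12.4% and 13.1% of all genes). In 7 of the 17 (41.2%, against 11.1% of all genes) every array of 3 days was above every array of 1 day. In 3 (17.6%, against 9.44% of all genes) every array of 3 days was below. With normexp and loess 6 of the 17 were called, *Cpt1a* (0.23, adjusted P = 0.045), *Cyp4a10* (0.45), *Cyp4a31* (0.47) and *Cyp4a32* (0.32) higher and *Acaa1b* (-0.29) and *Dbi* (-0.33) lower. *Ppargc1a* had ratios of 0.02, 0.28 and -0.08 at 1 day and 0.42, 0.89 and 0.43 at 3 days. All arrays of 3 days were above all of 1 day, and the difference was 0.51 ± 0.16 (SE, adjusted P = 0.13). A second, dimmer probe of *Ppargc1a* differed by 1.00 (adjusted P = 0.073), and the mean log2 ratio of the representing probe at 7 days was 0.77. *Cpt1a*, which carries fatty acids into mitochondria, was at 0.05, 0.17 and 0.06 and then at 0.28, 0.39 and 0.32 (difference 0.23 ± 0.05, adjusted P = 0.078), again without overlap. In the wider lists, 0 of 22 genes of mitochondrial beta-oxidation, 0 of 18 of peroxisomal beta-oxidation and 0 of 19 PGC-1 coactivators and partners were called (1.04% of all genes). Their medians were 0.093, -0.016 and 0.066. Every array of 3 days was above every array of 1 day in 31.8%, 16.7% and 31.6% of them, against 11.1% of all genes. Every array of 3 days was below in 4.55%, 5.56% and 5.26%, against 9.44%.

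*Fgf21*, a hormone of the fasted liver and a target of PPAR alpha, was too dim for the test. In the MgH2 channel it was well above background on 0 of 3 arrays at 1 day and on 3 of 3 at 3 days, and in the control channel on 0 of 6. Its MgH2 signal, on a linear scale after quantile normalization of the average intensity between arrays, was 7.9, 11.2 and 8.57 at 1 day and 15.2, 14.8 and 18.3 at 3 days. The arrays of 3 days were all brighter, at least 1.52-fold higher against the lowest measurable signal. Both days are read in the Cy5 channel, so a dye bias that is the same on every array cancels, and one that differs between arrays was not tested. *Pnpla3*, a lipase relative driven by the lipogenic factors, was well above background in the MgH2 channel on 3 of 3 arrays at 1 day and on 0 of 3 at 3 days. Its MgH2 signal went from 23.6, 22.9 and 32.1 to 6.42, 2.81 and 4.51, at least 2.32-fold lower by the same bound, while its control signal passed the background limit on each of the 6. Of the 39429 probes on the array, 22 appeared in this way between 1 and 3 days and 46 disappeared.

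*Pck1*, the cytosolic phosphoenolpyruvate carboxykinase that commits carbon to glucose synthesis, had ratios of -0.25, -0.08 and -0.17 at 1 day and 0.25, 0.45 and 0.21 at 3 days. The days did not overlap, every array of 1 day was below 0 and every array of 3 days above it (difference 0.48 ± 0.06, adjusted P = 0.047). *Pck1* was the only call among 25 genes of glucose metabolism, whose median was -0.098, and *G6pc*, the glucose-6-phosphatase, was at 0.06. *Pklr*, liver pyruvate kinase of glycolysis, differed by -1.12 (adjusted P = 0.050) without passing the test. The 27 genes of the urea cycle and amino acid catabolism had a median of 0.19. In 10 of the 27 (37.0%, against 11.1% of all genes) every array of 3 days was above every array of 1 day, among them *Got1* at 0.78, *Agxt* at 0.46 and *Ass1* at 0.31.

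The core of the cAMP response element, the letters TGACG on either strand, is bound by CREB, a factor of the fasting response known to act on *Pck1* and *Ppargc1a*. The upstream windows of both genes are shown for this motif, in the same form as above. That of *Pck1* is chr2:173152823-173153072 on the plus strand, and that of *Ppargc1a* is chr5:51567726-51567975 on the minus strand.
Pck1: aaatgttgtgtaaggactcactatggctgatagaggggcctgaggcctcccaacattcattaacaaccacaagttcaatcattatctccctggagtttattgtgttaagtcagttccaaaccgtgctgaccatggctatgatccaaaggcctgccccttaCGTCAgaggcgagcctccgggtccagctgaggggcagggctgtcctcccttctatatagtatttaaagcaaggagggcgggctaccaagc
Ppargc1a: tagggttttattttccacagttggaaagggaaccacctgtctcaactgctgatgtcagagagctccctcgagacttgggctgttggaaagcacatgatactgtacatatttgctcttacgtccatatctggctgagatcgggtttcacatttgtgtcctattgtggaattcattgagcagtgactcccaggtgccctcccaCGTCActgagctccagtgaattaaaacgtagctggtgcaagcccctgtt
Each window has 1 match, on the opposite strand. TGACG was in a window of 9 of the 30 genes that rose, 12 of the 72 that fell and 19.8% of all genes. The E-box CACGTG was in 3 of the 30, 5 of the 72 and 6.86%, the D-box TTATGTAA in 1, 0 and 0.977%, and the direct repeat AGGTCANAGGTCA of nuclear receptors in 0, 1 and 0.0407%.

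*Cyp39a1* had the largest rise of any gene by its representing probe, and *Slco1a4* and *Sult1e1* were also among the 5 largest. *Cyp39a1*, an oxysterol hydroxylase of bile acid synthesis, had ratios of -0.43, -0.28 and -0.21 at 1 day and 0.53, 1.01 and 0.91 at 3 days. Every array of 1 day was below 0 and every array of 3 days above it, a 2.18-fold rise (difference 1.12 ± 0.09, adjusted P = 0.025), and the mean log2 ratio at 7 days was 0.89. *Slco1a4*, an organic anion transporter that takes up bile acids and drugs, went from -0.62, -0.37 and -0.26 to 0.10, 0.85 and 0.63 (difference 0.94 ± 0.14, adjusted P = 0.049). These were the 2 calls among 20 bile acid genes (1.04% of all genes were called), whose median was -0.026. Every array of 3 days was above every array of 1 day in 15% of the 20 and below in 15%, against 11.1% and 9.44% of all genes. *Cyp7a1*, which limits the classical route of bile acid synthesis, differed by 0.76 (adjusted P = 0.17). *Sult1e1*, estrogen sulfotransferase, rose from 0.29, -0.57 and -0.30 to 1.00, 0.46 and 0.50.

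Among 28 drug-metabolising P450 genes *Cyp2f2*, an enzyme of periportal hepatocytes, fell by 0.37 on the log2 scale, 0 rose, and the median was 0.10. *Cyp2a4*, a steroid hydroxylase, differed by 0.83 (adjusted P = 0.054). Of 29 antioxidant and NRF2 target genes 0 were called and the median was 0.11. At an unadjusted P under 0.05 by limma 12 were higher and 3 lower (12.4% and 13.1% of all genes). In 12 of the 29 (41.4%, against 11.1% of all genes) the days did not overlap and 3 days was higher, led by the glutathione transferases *Gsta1* at 0.95 and *Gsta2* at 0.63.

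Of 26 interferon-stimulated genes tested, *Ifi27l2a*, *Oasl2* and *Irf7* fell, 0 rose, the median was -0.39, and the medians of the pairs were -0.50, -0.62 and -0.19. In 14 of the 26 (53.8%, against 9.44% of all genes) every array of 3 days was below every array of 1 day. *Irf7*, the transcription factor that amplifies the interferon response, was at 0.05, -0.26 and -0.43 and then at -0.65, -1.07 and -1.05 (difference -0.71 ± 0.06, adjusted P = 0.032). *Oasl2*, of the oligoadenylate synthetase family, was at 0.61, 0.52 and -0.21 and then at -0.34, -0.84 and -0.94 (difference -1.01 ± 0.12, or -0.41 with normexp and loess). *Ifi27l2a*, a small interferon-induced membrane protein, went from 0.67, 0.36 and -0.33 to -0.64, -1.10 and -1.09 (difference -1.17 ± 0.15). In all of them the lowest array of 1 day was replicate 3, and it was still above every array of 3 days. Among members that did not pass the test were *Oas1a* at -0.90, *Gbp6* at -0.70, *Irf1* at -0.46 and *Isg15* at -0.44, while *B2m* and *Rsad2* were at -0.06 and -0.03.

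Leukocytes and Kupffer cells also express these genes. Of their 12 markers tested 9 were below 0, with a median of -0.22 and 0 called. At an unadjusted P under 0.05 by limma 6 were lower and 0 higher (13.1% and 12.4% of all genes). Their summed signal was 44.9 to 47.8 times that of the median probe in the MgH2 channel at 1 day and 37.6 to 42.7 at 3 days, against 47.6 to 54.8 and 46 to 55.6 in the control channel. The B and T cell markers *Cd79a*, *Ms4a1* and *Cd8a* were not above background throughout and were not tested. The part of these cells in the interferon result was not tested.

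**Figure D4:**
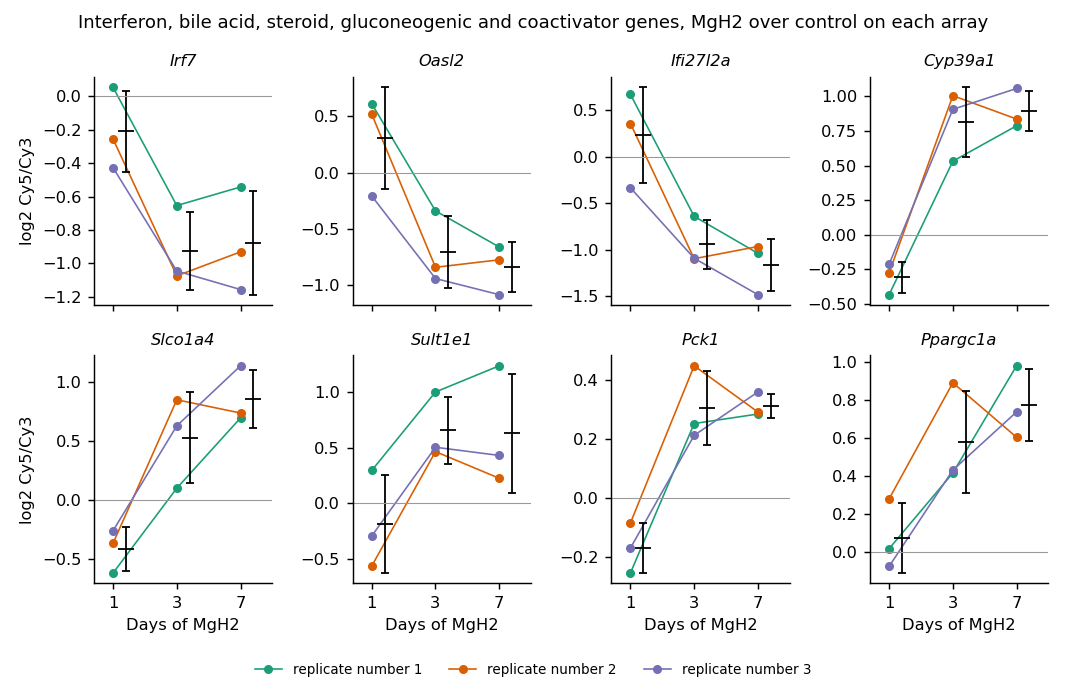
Log2 Cy5/Cy3 ratio (y axis, own scale in each panel) on every array after 1, 3 and 7 days of MgH2 (x axis, days evenly spaced) for 3 interferon-stimulated genes, 2 genes of bile acid handling, *Sult1e1*, *Pck1* and *Ppargc1a*. Lines join arrays of equal replicate number and black bars give the mean ± SD of 3 arrays. The interferon genes go down and the other genes up between 1 and 3 days on each line, as *Cyp39a1* from -0.43 to 0.53 for replicate 1.

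Of 22 genes of the unfolded protein response *Pdia6*, a disulfide isomerase, fell, 0 rose, the median was -0.31, and 15 were lower at an unadjusted P under 0.05 (13.1% of all genes). *Pdia6* was at -0.07, 0.17 and 0.18 and then at -0.48, -0.35 and -0.26 (difference -0.46, adjusted P = 0.043), and its other probe, at -0.40, was not called. *Calr*, calreticulin, differed by -0.30 (adjusted P = 0.051), *Dnajc3* by -0.34 and *Hspa5*, the main chaperone of the compartment, by -0.38, none of which passed the test. *Serpinh1*, the collagen chaperone, fell by 0.38 on the log2 scale and was the only call among 16 heat shock genes, but with normexp and loess it was at -0.17 and not called (adjusted P = 0.16).

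All 8 tested markers of stellate cells and matrix were below 0, with a median of -0.43. *Col3a1*, a fibrillar collagen chain, fell from 0.12, 0.11 and -0.07 to -0.45, -0.57 and -0.60 (adjusted P = 0.041). *Col1a1* differed by -0.69 (adjusted P = 0.058) and *Lrat*, the retinol esterifying enzyme of stellate cells, by -0.64 (adjusted P = 0.052). The summed signal of the 8 was 40.6 to 44.3 times that of the median probe in the MgH2 channel at 1 day and 32 to 38.2 at 3 days, against 38.7 to 46.1 and 37 to 44 in the control channel, and *Des* and *Timp1* were not tested. Their part in the fall of *Col3a1* and *Serpinh1* was not tested.

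Hepatocyte markers were high on all arrays, with a summed signal of 2400 to 2480 times the median probe in the MgH2 channel at 1 day and 2330 to 2540 at 3 days. Of the 8, *Fabp1* fell and the median was 0.066. Markers of red blood cells had a median of 0.23 with 0 of 7 called, and their summed signal was 226 to 280 at 1 day and 310 to 361 at 3 days in the MgH2 channel, against 246 to 446 and 238 to 425 in the control channel. Endothelial, bile duct and pancreatic markers had 0 calls.

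**Figure D5:**
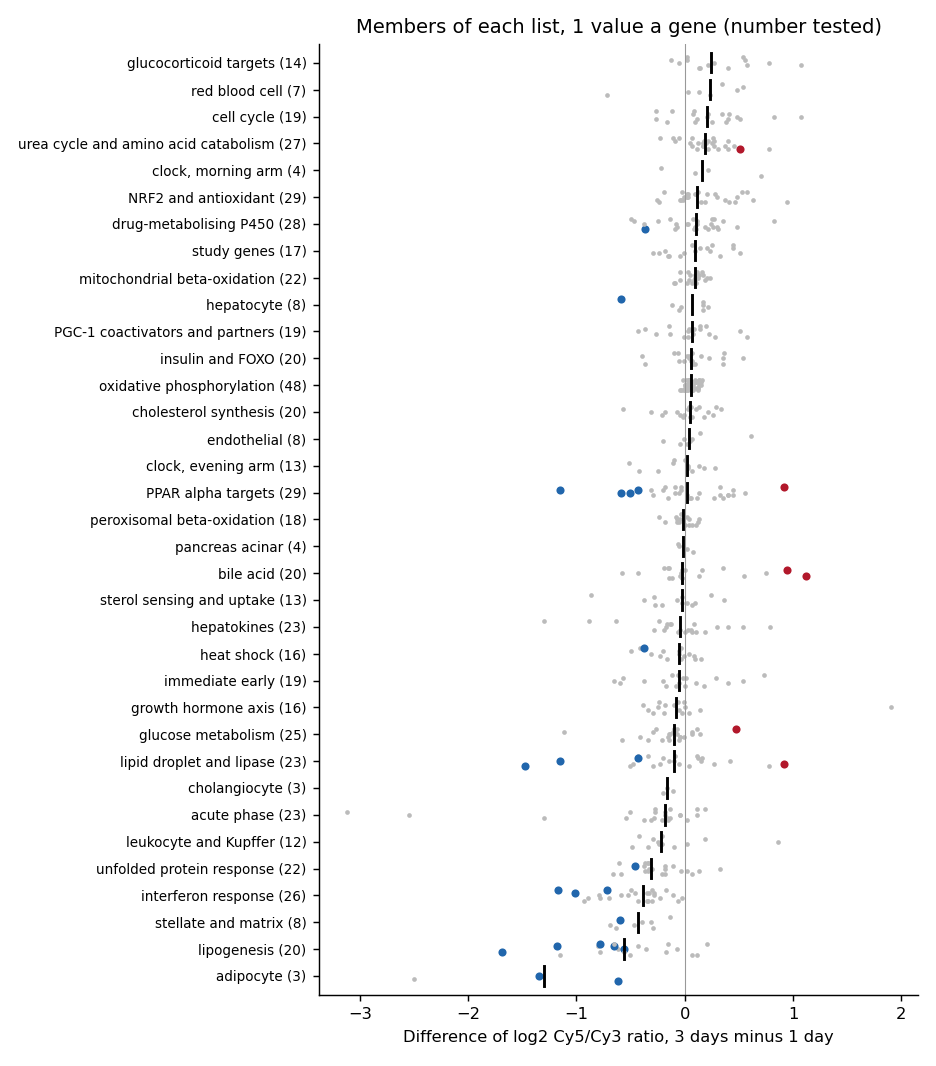
Difference of the log2 Cy5/Cy3 ratio, 3 days minus 1 day (x axis), for the members of each list (y axis, number of genes tested in brackets), with 1 point per gene and a black bar at the list's median. Red points rose, blue points fell and grey points were not called. The adipocyte, lipogenesis, stellate and interferon lists have the lowest medians, at -1.3, -0.56, -0.43 and -0.39, and glucocorticoid targets the highest, at 0.24.

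The other lists had no calls. Cholesterol synthesis had 0 of 20 genes called and a median of 0.047, and sterol sensing and uptake 0 of 13 and -0.027. Insulin and FOXO genes had 0 of 20 called and a median of 0.062. Of 48 genes of oxidative phosphorylation 0 were called, the median was 0.058, and in 17 (35.4%, against 11.1% of all genes) all arrays of 3 days were above all of 1 day, while in 0 they were all below (9.44% of all genes). Acute phase genes had 0 of 23 called and a median of -0.18, with 13 lower and 1 higher at an unadjusted P under 0.05 by limma (13.1% and 12.4% of all genes). *Saa2*, serum amyloid A, spread from -3.27 to 3.28 on the arrays of 1 day, and its difference of -3.12 did not pass the test (adjusted P = 0.083). Glucocorticoid targets had 0 of 14 called and the highest median, 0.24, and in 5 of the 14 (35.7%, against 11.1% of all genes) all arrays of 3 days were above all of 1 day, among them *Fkbp5* at 0.54 (adjusted P = 0.052). The evening and morning arms of the clock, immediate early genes, hepatokines, the growth hormone axis and the cell cycle also had 0 calls.

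Outside the lists, the gene with the largest fall was *Bach2*, a transcriptional repressor of B and T cells. Its ratios were 0.59, 0.19 and 0.79 at 1 day and -0.78, -0.84 and -0.71 at 3 days, all above 0 and then all below it (difference -1.30, adjusted P = 0.043). *Rassf4*, *Niban2*, *Samd5*, *Adgrv1*, *Mllt3* and *Tnfrsf19* fell by 1.13, 1.05, 0.91, 0.91, 0.83 and 0.80 on the log2 scale, and a second probe of *Niban2* fell by 1.02. With normexp and loess the differences of *Bach2*, *Rassf4*, *Samd5*, *Adgrv1* and *Mllt3* were -0.52, -0.38, -0.265, -0.42 and -0.10, and *Samd5* (adjusted P = 0.075) and *Mllt3* (adjusted P = 0.23) were not called. *Epop*, a partner of Polycomb and elongin complexes, rose from -0.49, -0.40 and -0.72 to 0.56, 0.75 and 0.28 (difference 1.07 ± 0.08, adjusted P = 0.025). *Ppp4r4* and *Itprip* rose by 0.73 and 0.72, *Sestd1* and *Znrf3*, a ubiquitin ligase that lowers Wnt receptors, by 0.63 each, and *Slc41a3*, of a family of magnesium transporters, and *Retreg1*, a receptor for autophagy of the endoplasmic reticulum, by 0.57 each, all on the log2 scale. With normexp and loess *Ppp4r4*, *Sestd1*, *Znrf3* and *Slc41a3* were at 0.42, 0.15, 0.24 and 0.34, and *Sestd1* was not called (adjusted P = 0.098).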

How the data were processed

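Liver RNA pools were compared on two-color Agilent arrays, Cy5 for MgH2 and Cy3 for control. The intensity values used here were deposited by the authors as processed by Agilent Feature Extraction (version 10.10.1 by the submitters' notes), with the local background removed and the dyes balanced by linear and lowess normalization. The study's methods also divide by the total intensity of an array, which leaves its ratios unchanged. The log10 ratios in the deposited scanner files and the log2 ratios in the deposited table differed by at most 1.4e-06 on the log2 scale from the log2 ratios computed here. The deposited p-value columns, from the scanner software's error model on single arrays, were not used.

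Control spots were left out, and so were 160 to 228 spots of each array that the scanner software marked as outliers, and spots of a probe were averaged. A probe was above background when at least 0.5 of its spots were. Between 52.36% and 53.52% of the 43020 spots were above background in both channels, and 0 were saturated, and the number of arrays limits the precision. Symbols came from RefSeq accessions (26412 probes, 67%), and a gene was represented by its brightest probe.

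The 9 MgH2 arrays were fitted with limma 3.58.1 in R 4.3.3 with day and replicate number, two-sided, with Benjamini-Hochberg adjustment over 19223 probes; called means adjusted P under 0.05. Over the pairs of arrays of different days with equal number, the deviations of the ratio correlated with r of 0.357 to 0.631 (9 pairs of arrays), so the number was kept as a block. The study's methods describe pools of separate mice within a group. With number as a block, P measures the spread left after the level of each number is removed, not all spread between pools. *Cidec*, for example, had an SD of 1.04 over the arrays of 1 day and 1.12 over those of 3 days. The SE of its difference in the fit was 0.10. The labels do not say whether pools of equal number were independent across days. The fit was tested on simulated data. The genes described were the 12 largest called rises and falls with one sign in all pairs and no overlap, up to 4 called members per list, and the study's genes; other genes named with values were chosen after their values were seen. The comparison, its members, the lists and the tests were chosen with earlier results of these data known. Some genes are not reported here.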

Additional observations from a re-analysis of the deposited data

Results flagged for a closer look

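The differences between 1 and 3 days listed here passed the limma test of the difference itself, at an adjusted P under 0.05. On the log2 scale the following genes fell. In lipid synthesis and storage the differences were -1.69 for *Fasn*, -1.48 for *Cidea*, -1.21 for *Scd3*, -1.18 for *Elovl6*, -1.15 for *Cidec*, -1.09 for *Acot11*, -0.78 for *Thrsp*, -0.651 for *Me1*, -0.589 for *Fabp1*, -0.503 for *Ucp3* and -0.431 for *Fitm1*. Among interferon-stimulated genes they were -1.17 for *Ifi27l2a*, -1.01 for *Oasl2* and -0.714 for *Irf7*. Genes listed as markers of fat cells and matrix gave -1.34 for *Retn*, -0.618 for *Car3* and -0.595 for *Col3a1*. The chaperones *Pdia6* and *Serpinh1* gave -0.456 and -0.379. The others were -1.3 for *Bach2*, -1.13 for *Rassf4*, -1.05 for *Niban2*, -0.911 for *Samd5*, -0.907 for *Adgrv1*, -0.831 for *Mllt3*, -0.8 for *Tnfrsf19* and -0.366 for *Cyp2f2*.

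The genes that rose had differences of 1.12 for *Cyp39a1*, 1.07 for *Epop*, 0.941 for *Slco1a4*, 0.913 for *Plin5*, 0.846 for *Sult1e1*, 0.734 for *Ppp4r4*, 0.716 for *Itprip*, 0.625 for both *Sestd1* and *Znrf3*, 0.571 for *Slc41a3*, 0.57 for *Retreg1* and 0.475 for *Pck1*.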

How the results depend on the processing

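Against 55 probes that rose, 119 that fell and 4538 at an unadjusted P under 0.05 by limma, the counts were within 1.5 times under scaling to the channel totals, median centring, a filter over all 9 arrays, outlier spots kept and the deposited table. Normexp with loess called 248 and 524, of which 39 and 100 were shared. Without the filter on dim probes 0 and 0 were called. With no replicate block, and so without the pairing, 1 and 0 were called and 2627 had an unadjusted P under 0.05. The 6 arrays alone gave 0 and 0, and all 12 arrays without the block 3 and 1, with 2962. Slide as a block gave 0, 0 and 1517 without the replicate block and 0, 0 and 2487 with it. The methods' t-test gave 0 and 1 after Benjamini-Hochberg adjustment and 2261 unadjusted. Leaving out each replicate number in turn gave 0 to 0 rising, 0 to 0 falling and 2753 to 3637 unadjusted. Over the single genes named, 501 values kept their status as called or not called, 402 kept direction but lost the call and 6 gained it. Those 6 were all genes the study followed, with normexp and loess. Of the called genes 2 reversed, *Cidec* at 0.0541 and *Cidea* at 0.00896, both with slide as a block and no replicate block. The 501 include changes of sign in genes that were not called, 3 for *Apoa2* and 1 each for *Ppara* and *Acaa1a*. The cause was not tested. Of the list medians 515 moved by less than the spread between pairs and 45 by more. Signal over background limits the data to 19223 of 39429 probes.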

Other observations

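Several called genes outside the lists had differences that are given here as values, chosen after they were seen. *Cxcl1*, a chemokine that attracts neutrophils, fell by 0.904 on the log2 scale, *Sucnr1*, the succinate receptor, by 0.721, *Ucp2*, a mitochondrial carrier, by 0.439 and *Ncf4*, a subunit of the phagocyte NADPH oxidase, by 0.51. *Pnpla7*, a lysophospholipase, fell by 0.666. The long noncoding RNA *Neat1*, the scaffold of paraspeckles, fell by 0.91. Smaller differences included *Uso1* at -0.363 and *Derl2* at -0.332, and *Txndc16* at 0.435. *Cth*, cystathionine gamma-lyase, rose by 0.464 and *Aifm2*, a reductase of coenzyme Q also known as FSP1, by 0.327. None of these was named by the rule for the genes of the report.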
